A study of Drosophila melanogaster with 4 samples.

Results

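The genes drm (drumstick), sob (sister of odd and bowl) and odd (odd skipped) of Drosophila melanogaster lie side by side on chromosome arm 2L and encode related zinc finger proteins. Binding of the homeodomain protein Distal-less (Dll) over this cluster was described from a chromatin immunoprecipitation and sequencing (ChIP-seq) experiment. The cluster was taken as the stretch of 2L from 3520000 to 3640000 in FlyBase release 5, a window of 120 kb, and its members are the peaks whose midpoint falls in it. These were 40 of the 16117 peaks of the list, and 40 of the 2862 on 2L. The window was chosen from the peaks themselves, since the number, width and score of its peaks were known when it was proposed. Those measures are therefore given as a description, with no test.

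The list came from 2 ChIP libraries, precipitated with an affinity-purified rabbit polyclonal serum against Dll, and 2 input libraries of chromatin that was not precipitated. Both kinds of library were made from white prepupae, the immobile stage that opens metamorphosis, of the strain Y cn bw sp. ChIP and input animals carried the same alleles per the labels. These were the marker alleles y[1], sp[1], bw[1] and cn[1], the alleles lab[R4.2], oc[R3.2] and CG33964[R4.2], and, of other genes, Rh6[1], GstD5[1], MstProx[1], LysC[1], Gr22d[1] and Gr22b[1]. The labels do not say whether replicate libraries came from separate collections of animals. The labels name no tissue, so a peak does not tell which cells of the animal held the bound chromatin. The file gives 1 score per peak for the whole series and no value per library. Depth is thus unknown, and no replicate error, interval or comparison of ChIP with input can be given for any peak.

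Dll is required for the distal parts of the legs and antennae and binds AT-rich DNA through its homeodomain. In the leg discs, drm, sob and odd are known to be switched on by Notch signalling in rings next to the future joints, where they promote the folding of the epithelium. The gene odd was first described as a pair-rule gene of the embryo. Drm is known to relieve the block that the protein Lines places on Bowl, the fourth protein of the family. During the prepupal stage the leg discs turn outward and the segments and joints of the leg take shape.

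Dll peaks lay on all 3 genes, and both of the very high scores of the window were on members of the family. The share of all genes that overlap a peak was not counted, so the presence of a peak on all 3 is not read as particular to them. The score is the peak caller's own value for each peak, on a scale that the file does not name, so a ratio of scores is no fold of binding. The highest peak of the window, 2L:3544982-3545954, lay inside the span of drm. It had a score of 820.91 over 973 bp and was the second of the whole list. The next, 2L:3578285-3581307, lay over sob with a score of 743.91 over 3023 bp and was the fifth of the list. The peak on odd, 2L:3605006-3607552, scored 113.97 over 2547 bp, which placed it at 1108 of 16117. The cluster thus held 2 of the 10 highest peaks of the series, while odd itself carried a peak of far lower rank. In the sentences on genes, a span is the stretch from the first to the last annotated base of a gene in release 6. Its coordinates were taken to be the same in release 5 for this stretch of 2L, without a check against sequence.

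**Figure D1:**
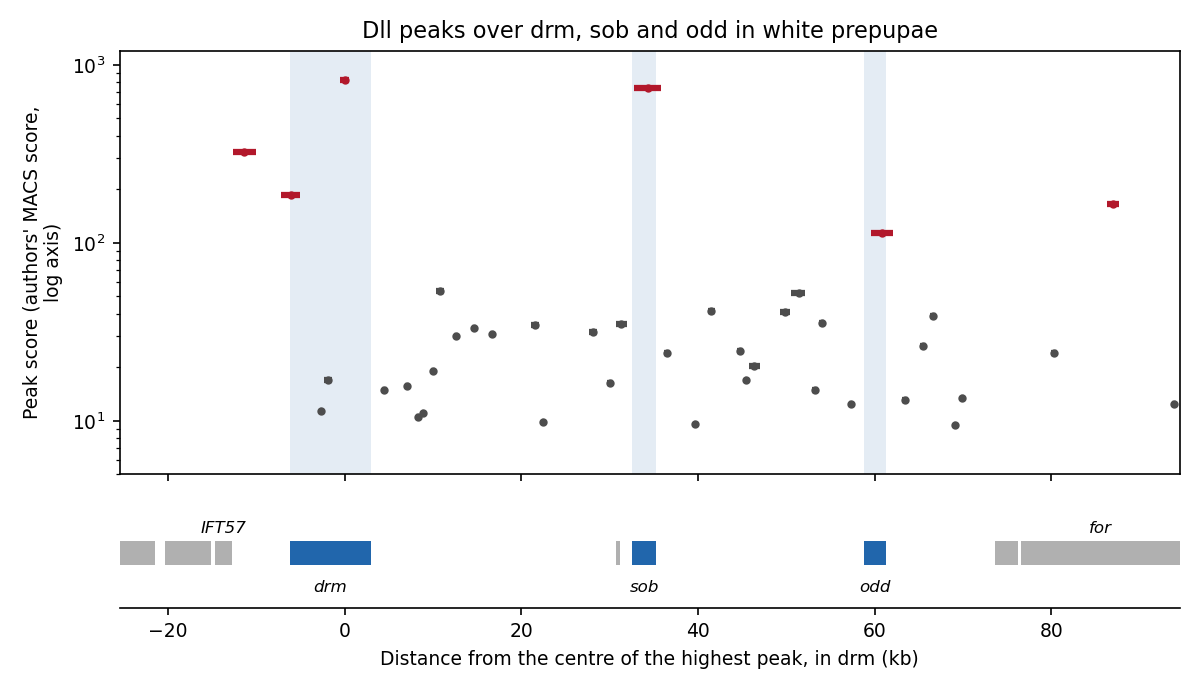
Dll peaks of the 120 kb window, each drawn at its true width and with a dot at its midpoint. The horizontal axis is the distance in kb from the centre of the highest peak, the vertical axis the score on a log axis, and the lower strip shows protein-coding genes, with drm, sob and odd in blue. The 6 peaks above a score of 100 are red, and the other 34 lie between 9.42 and 53.31.

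The drm span, 9177 bp long, overlapped 4 peaks, which covered 35.0% of it. The highest of them began 5735 bp from the low-coordinate end of the span and ended 2469 bp before the high-coordinate end. Peak 2L:3538330-3540430, with a score of 184.87 over 2101 bp, straddled the low-coordinate end and reached 917 bp beyond it. The remaining peaks of the span scored far lower, at 2L:3542736-3542943 (score 11.28, 208 bp) and 2L:3543149-3543993 (score 16.97, 845 bp). The latter score was close to the median of the whole list, 17.27. The gene therefore had a pair of high peaks 6.1 kb apart between midpoints with lower ones between them. The table of genes gives no strand and no exons, so whether these positions are promoters, introns or exons was not determined.

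A further high peak, 2L:3532819-3535408, lay on the low-coordinate side of drm with a score of 324.23 over 2590 bp. It was 141 bp from the high-coordinate end of IFT57, a gene for a protein of intraflagellar transport. From the low-coordinate end of drm it was 3839 bp away. It was ranked 121 in the list. Together with the peaks on drm and sob it made up the 3 members of the window in the top 1% of scores.

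On sob, a single peak covered 90.1% of the span of 2757 bp. It began 272 bp inside the low-coordinate end and ran 538 bp past the high-coordinate end. On odd, likewise a single peak, 69.1% of the span of 2533 bp was covered, with 796 bp of the peak lying past the high-coordinate end. Both peaks were thus about as long as the gene they covered. The highest peaks of drm and sob were 34.3 kb apart between midpoints, and those of sob and odd were 26.5 kb apart.

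The peaks between the genes were many, and their scores were low only beside the 6 peaks of the window over 100. The median score of the whole list was 17.27. Between drm and sob, 14 peaks lay in 29.6 kb, with scores from 9.84 to 53.31 and a median of 24.44. Starting at drm, the first 5 scored 14.94, 15.73, 10.48, 11.04 and 18.95. Peak 2L:3555795-3556699 followed with 53.31, the highest score between drm and sob, 7372 bp from drm. Towards sob, the scores were 29.93, 33.17, 30.78 and 34.5, then 9.84, 31.54, 16.39 and 35.2. None of the 14 reached the top 10% of the list, which begins at a score of 85.2. With a share of 10% over the list by definition, nothing is read from this among only 14 peaks.

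Between sob and odd, 11 peaks lay in 23.5 kb, with scores from 9.63 to 52.03 and a median of 24.07. The widest of these was 2L:3596054-3597639, which spanned 1586 bp with a score of 52.03, 6585 bp from odd. Beside it, 2L:3594701-3595885 scored 40.95 over 1185 bp. Peak 2L:3586578-3587379, with 41.57 over 802 bp, lay 5809 bp from sob and overlapped the non-coding gene lncRNA:TS2. Both intergenic stretches thus had peaks at about the same spacing, 4.73 per 10 kb between drm and sob and 4.69 per 10 kb between sob and odd. In each of them 7 peaks scored 20 or more.

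Beyond odd, 8 peaks lay in the last 33.2 kb of the window, or 2.41 per 10 kb, with a median score of 18.68. The highest, 2L:3631764-3633144, scored 165.35 over 1381 bp and lay in the span of for (foraging), the gene of a cGMP-dependent protein kinase. It was 25008 bp from odd, and no other member with a score over 100 was so far from drm, sob and odd. The other 7 scored from 9.42 to 38.86.

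No peak of the window had a score between 53.31 and 113.97. There were 34 peaks from 9.42 to 53.31, with a median of 19.65, and 6 from 113.97 to 820.91. Scores from 60 to 100 were found for 0 of the 40 peaks and for 6.8% of the list. With so small a share over the list, the empty band among 40 peaks is not read as a division into classes. The peaks over 100 are called high below only for short. Of the 6 high peaks, 2 overlapped drm, 1 sob and 1 odd, 1 lay in for and 1 overlapped no gene. The 6 peaks over any of the 3 family genes scored from 11.28 to 820.91, with a median of 149.42. The 34 peaks off them had a median of 23.98 and reached 324.23. As the scores were known when the window was proposed, nothing is read from this contrast. The spans of drm, sob and odd take up 12.1% of the window.

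Most peaks were outside genes. Of the 40, 26 (65.0%) overlapped none of the 20 annotated spans of the window, and their scores ran from 9.42 to 324.23 with a median of 19.65. By midpoint, 12 peaks (30.0%) lay in a span, while spans make up 43.6% of the bases of the window. The spans of 9 protein-coding genes other than drm, sob and odd lie wholly or partly in the window, and 7 of these overlapped no peak. Peaks overlapped for, as above, and CG43815, a short gene beside sob, whose peak scored 35.2. At the low-coordinate end, the 5 genes CG8851, Sr-CIV, CG8852, Spindly and IFT57 lie in a stretch of 13.0 kb. It includes the spaces between them and begins outside the window, as CG8851 crosses the edge. This stretch was touched by 0 peaks. Sr-CIV is a scavenger receptor gene, and Spindly encodes a protein that brings dynein to kinetochores. Also without a peak were Ugt36A1, a gene of the UDP-glycosyltransferase family, and CG15418, both between odd and for. Of 7 long non-coding RNA genes, 5 overlapped a peak, the highest being lncRNA:CR44308, which the 184.87 peak at the edge of drm touched. Where peaks of other arms lie relative to genes was not analysed here, so no share over the whole list can be set beside these.

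A run of peaks was marked off at long empty stretches of the window, a division chosen from these same gaps. From 2L:3532819 to 2L:3615620, 37 peaks lay in 82.8 kb with no gap over 5033 bp, and they covered 38.3% of that stretch. Before the run came 13686 bp without a peak and after it 9858 bp. How often gaps of such length occur over the large arms was not counted, so these ends are not called unusual. A gap of 16218 bp followed the last peak of the window. The median gap between neighbouring members was 1177 bp (39 gaps), and that over the large arms was 2180 bp (15610 gaps). Gaps of 1000 bp or less made up 43.6% in the window and 33.5% over the large arms.

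Members just inside the low-coordinate edge of the window were the peaks of scores 324.23, 184.87 and 11.28, while the 3 nearest outside it scored 22.78, 10.34 and 32.29. At the high-coordinate edge, the 3 nearest inside scored 12.48, 165.35 and 23.89, and the 3 nearest outside scored 17.53, 24.17 and 20.13. The last member lay 675.5 bp from the edge by its midpoint and the first 14113.5 bp.

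Peaks of the window were wide. The middle width was 672 bp, with quartiles at 440 and 973.25 bp, against 435 bp (296 to 685 bp) for the other 15575 peaks of 2L, 2R, 3L, 3R and X. The median score was 24.4 (interquartile range 14.5 to 39.4) in the window, against 16.97 (11.6 to 34.79) in the others. Of the members, 4 were wider than 2000 bp, namely those on sob and odd, the one at the low-coordinate end of drm and the one between IFT57 and drm. Over the list the share of such wide peaks was 2.34%. In the top 10% of scores were 6 of the 40 members, where the list has 10% by definition, and in the top 1% were 3, where the list has 1.01%. As these measures were known when the window was proposed, nothing is read from the counts.

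Width and score rose together across members, with a Spearman correlation of 0.813 (40 peaks), against 0.72 in the other peaks of the large arms. These values describe 1 list whose peaks share the same libraries. The drm peak was narrower than the median of the 162 peaks in the top 1%, 973 against 1335 bp, and 42 of them (25.9%) were narrower still. Of the same set, 14 (8.64%) were wider than the 3023 bp of the sob peak. The odd peak was of nearly the same width as that between IFT57 and drm, 2547 and 2590 bp, with scores of 113.97 and 324.23.

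**Figure D2:**
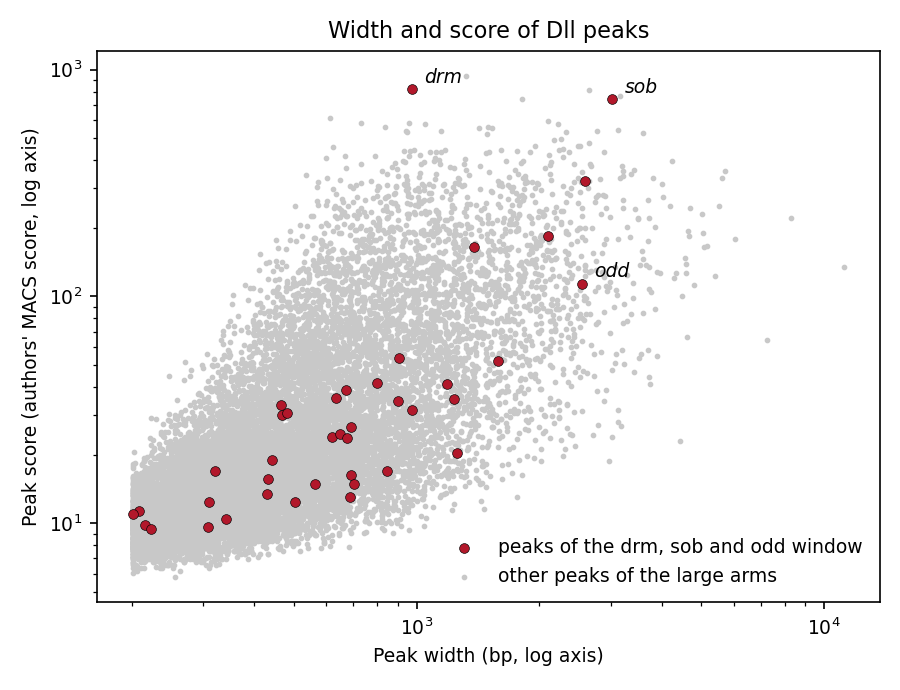
Width in bp and score of each peak, both on log axes, with the 40 members in red over the other peaks of the large arms in grey. The highest peaks on drm and sob have similar scores, 820.91 and 743.91, at widths of 973 and 3023 bp, while the peak on odd, at 2547 bp, scores 113.97.

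The window was compared with 984 other whole windows of 120 kb on 2L, 2R, 3L, 3R and X, laid on a grid that includes it. It held 40 peaks, against a median of 14 in the others (interquartile range 8 to 22), and 33 of the others (3.35%) held as many or more. Peaks covered 34232 bp, or 28.5%, of it, against a mean of 7.71% ± 6.5 (SD, n = 984 windows), and 10 of the others (1.02%) had as much or more. Peaks covered more of the window than its rank by number alone would show, as its peaks were also wide. Of the 832 other windows with at least 5 peaks, 28 (3.37%) had a median width of 672 bp or more, and 147 (17.7%) had a median score of 24.4 or more. Its rank was thus highest for the top score and the covered length, and lowest for the score of its typical peak.

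**Figure D3:**
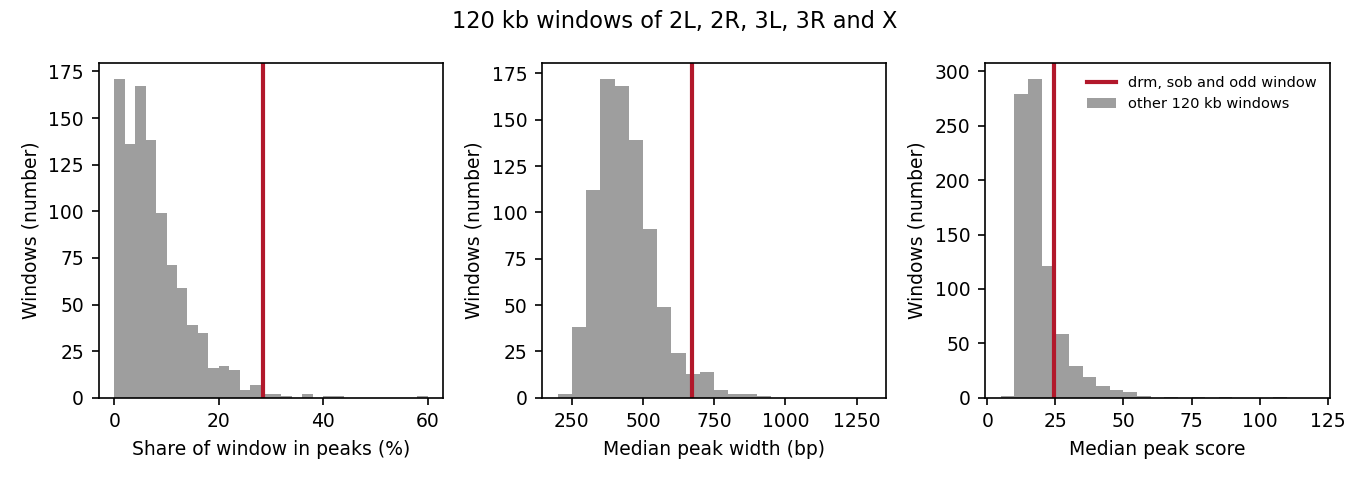
Share of the window in peaks, median peak width and median peak score for 120 kb windows, with the drm, sob and odd window as a red line at 28.5%, 672 bp and 24.4. The grey bars count the other windows, drawn from 984 for the share in peaks and from 832 with at least 5 peaks for the medians. The bars leave out the highest median width, 1322 bp, and the highest median score, 120.4, which lie beyond the last bars.

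By its highest score the window came second of 985. Of the 9 windows that held any of the 10 highest peaks of the list, it was the one with 2 of them. The nearest pair among the other 8 of these peaks was 909.8 kb apart, on 2R. With 3 peaks in the top 1%, it was matched by 3 other windows of this grid and exceeded by 0, while 846 of the 984 held none. Off the grid, the window of 120 kb centred on the peak 3L:17556421-17557381 held 4. Of peaks in the top 10% it held 6, while others held up to 10 and 37 of them held 6 or more.

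Dense windows differed widely in their highest score. The drm, sob and odd window, with 40 peaks, reached 820.91, while in the 33 other windows with 40 or more the highest score ran from 27.78 to 446.25 with a median of 215.48. That contrast depends on where the number of peaks is divided, since the window of 2L from 14440000 to 14560000 held 39 peaks and reached 939.07, and that of 2R from 19480000 to 19600000 held 35 and reached 816.98. Of the 33 windows, 1 had a median width at or above 672 bp, 5 had a median score at or above 24.4 and 8 had as much sequence in peaks.

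**Figure D4:**
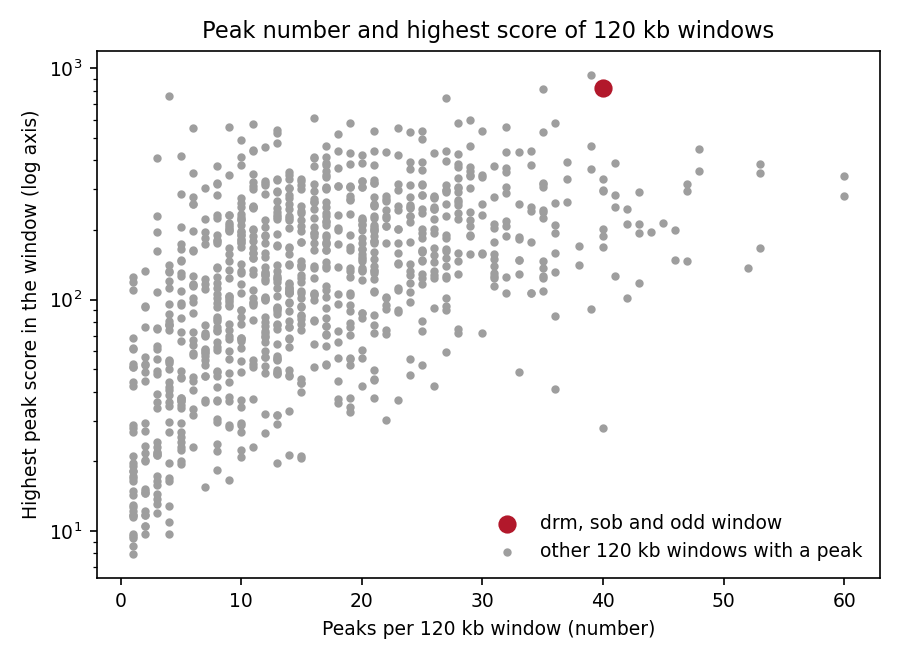
Number of peaks and highest score (log axis) of each 120 kb window that has a peak. The drm, sob and odd window, with 40 peaks and a highest score of 820.91, lies at the upper edge beside a window of 39 peaks that reaches 939.07. The 33 other windows with 40 peaks or more reach 446.25.

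Windows of the same length centred on others of the 10 highest peaks differed in what surrounded the high peak. Around the drm peak there were 42 peaks with a second score of 743.91, and around the sob peak 40 peaks. Around the highest peak of the list, 2L:14489974-14491294 with a score of 939.07, there were 36 peaks, but the second score was 268.72. Around 2R:19553970-19556612, with 816.98, there were 38 peaks and the second score was 274.38. At the other extreme, 3R:22055223-22058374, with 761.91, had 3 neighbours in its window, of which the highest scored 49.48. The closest to the drm and sob pair in having a second high peak was 3L:17556421-17557381, where scores of 581.89 and 537.05 lay among 25 peaks.

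The tiles directly beside the window on 2L had fewer peaks. The drm, sob and odd window held 40 peaks over 28.5% of its length, against 27 peaks over 9.57% in the tile below it and 19 over 7.8% in the tile above. The median score was 24.4 in the window, against 14.39 in the tile below and 17.87 in the tile above, where the highest scores were 124.16 and 168.76. The fourth family gene, bowl, lies 164.9 kb beyond odd, in the tile after that. Its span was likewise taken from release 6 as sharing coordinates with release 5, which is assumed here for a position outside the window. That tile held 25 peaks over 13.9% of its length, with a highest score of 283.89 at 2L:3786818-3787452, 2697 bp past the bowl span. The median score of the drm, sob and odd window, 24.4, was below the 27.01 of that tile. The bowl span, 12422 bp long, overlapped 6 peaks with scores from 11.22 to 138.16 and was 38.4% covered, against 35.0% of drm. The top score on bowl was thus nearer to the 113.97 of odd than to the 820.91 of drm or the 743.91 of sob.

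**Figure D5:**
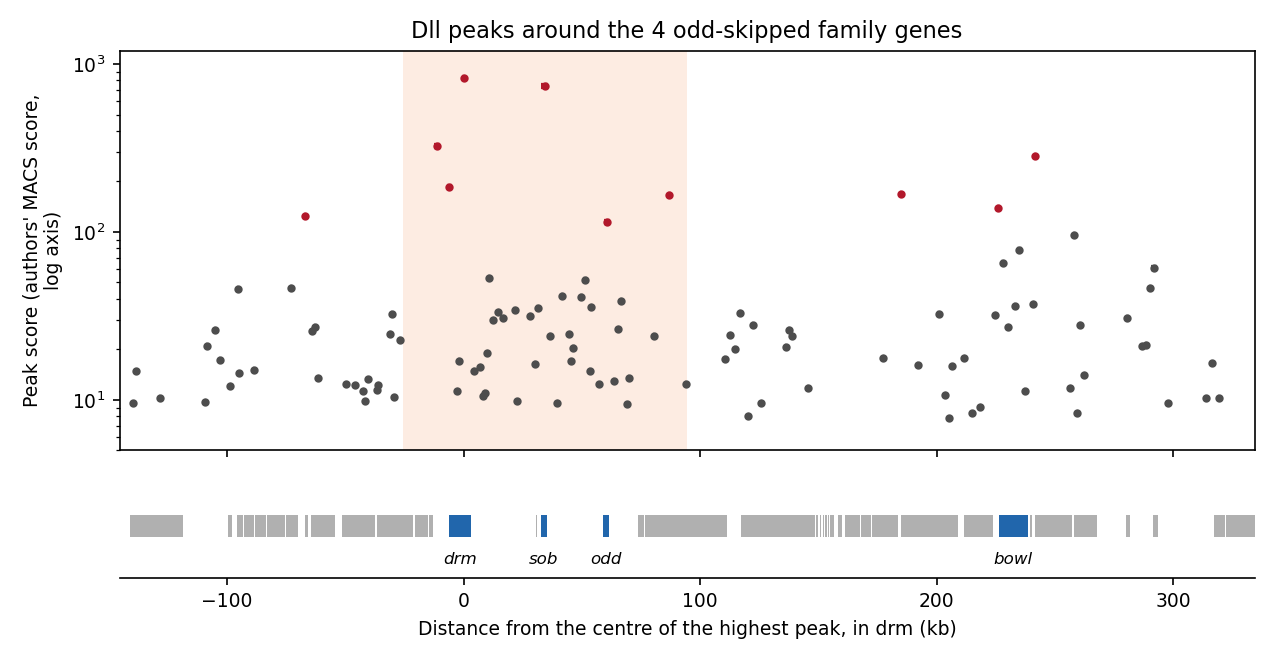
Peak scores (log axis) over 480 kb of 2L by distance in kb from the centre of the highest peak, with the 120 kb window shaded and protein-coding genes below. Peaks over a score of 100 are red, and the 4 family genes are blue. The 2 highest scores lie on drm and sob, while peaks on bowl reach 138.16.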

How the data were processed

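Per the submitters' processing notes, the tools were MACS2, BWA and CASAVA (1.7.0.2, 1.7.0.3), and the build was BDGP 5. The sources used here do not give the calling threshold, the filters or any pooling of replicates. The authors deposited 1 peak list (GFF version 3, FlyBase release 5, per the file headers) with a start, an end and a score per peak. The deposited score has no named scale, and the list carries no depth. Peaks were placed by midpoint, and width was end minus start plus 1. Windows of 120 kb were laid on a grid holding the odd-skipped window, within the span from first to last peak of each large arm, and those with under 5 peaks were left out for medians. Gene spans came from RefSeq's release 6 table, which has no strand. The members and lists were chosen with earlier results of these data known. Named are the family genes, all genes of the window, its 10 highest and 5 widest peaks, the 3 peaks nearest each side of both edges, and others where a count calls for them, these chosen after their values were seen. Sequences, motifs and proteins were not analysed here, nor were other limb genes of 2L. Window counting was tested on simulated data. Python 3.11.15, pandas 2.3.3 and SciPy 1.17.1 were used.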

Additional observations from a re-analysis of the deposited data

How the results depend on the processing

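For the 5 window measures, the share of other windows at or above the drm, sob and odd window was recomputed. In all, 14 results had 50 alternatives. Of these, 38 stayed within the 95% exact binomial (Clopper-Pearson) interval of the share or within 1.5 times the count. That interval served only as a tolerance and measures no sampling spread, since the windows come from 1 list and are not independent draws. For peak number (3.35%), the share was 2.11% on 2L alone, 2.24% in the highest 50% of peaks and 1.32% in windows of 60 kb. For covered length (1.02%), 0% of 190 windows on 2L reached the window's value. For median width (3.37%), it was 10.2% in the highest 50% of peaks, 8.98% in the highest 25% and 7.37% after merging peaks within 1000 bp. For median score (17.7%), it was 52.4% in the highest 50%, 35.6% in the highest 25%, 14.4% after merging and 14.8% without X. A median score over the highest 50% or 25% of peaks therefore does not set the window apart. The cause of these shifts was not tested. The share for the highest score (0.102%) was 0.125% without X, 0.526% on 2L alone and 0.102% with windows moved in steps of 10 kb. Dropping low peaks, merging or placing by overlap can hardly change a window's highest score by construction, so these alternatives do not bear on it. Counting a peak wherever it overlaps by 1 base, a choice added after seeing the data, gave 2 peaks below drm in place of 1. The planned division of the window by gene starts could not be made without strand, so gene spans were used, and the motif and protein comparisons were not run. No paired analysis was possible because the list has no values per library, and no library could be left out for the same reason. Peaks lost to a low depth or to the calling threshold cannot be recovered from this list.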
